A study of Mus musculus with 6 samples.

Results

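The vacuolar proton pump (V-ATPase) genes described here are 10 genes chosen by name from a deposited table of 19162 genes: Atp6v1a, Atp6v1b2, Atp6v1c1, Atp6v1d, Atp6v1e1, Atp6v1h, Atp6v0a1, Atp6v0d1, Atp6v0d2 and Atp6ap1. All 10 were found in the table and all 10 passed the filter on low counts. RNA was sequenced from C57BL/6J mouse bone marrow cells grown for 4 days with GM-CSF, a cytokine that expands myeloid cells, at 40 ng/mL. A group of 3 libraries (KCl 1, 2 and 4) had 34.7 mM of potassium chloride added to the culture, and 3 libraries (control 1, 2 and 4) had none, with GM-CSF in both groups. No library with another salt or solute was analysed here, so potassium and osmolality cannot be told apart. The labels leave unsaid whether the replicates of a group came from separate mice or cultures. The p-values therefore cover the spread among these 6 libraries, and that spread may be technical. The series title calls the cells BM-MDSCs, and markers of neutrophils (12132 to 17473 CPM in KCl and 10502 to 11243 CPM in control, 8 of 8 in the table, where CPM is a count scaled to library size) stood far above those of lymphocytes (16.9 to 26.4 CPM in KCl and 13.4 to 19.1 CPM in control, 6 of 7 in the table).

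The V-ATPase is a rotary machine that uses ATP to pump protons into lysosomes, endosomes and phagosomes. Its cytosolic V1 sector binds and splits ATP and turns a central shaft. Its membrane V0 sector holds the proteolipid ring and the a subunit, between which protons cross. In macrophages the pump acidifies phagosomes, and in osteoclasts, which arise from the same marrow precursors, it acidifies the bone surface. Several subunits have alternative genes whose use differs between tissues.

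Library totals were 18933948, 17814232 and 17935912 counts for KCl 1, 2 and 4, and 20789328, 21694831 and 14118724 for control 1, 2 and 4. The 10 genes together held 0.216%, 0.223% and 0.216% of all counts in KCl 1, 2 and 4, against 0.180%, 0.201% and 0.193% in control 1, 2 and 4. KCl 4 and control 4 cannot be taken as independent of the other libraries. The mean CPM of this pair was set against the mean CPM of the other 4 libraries, over 8231 genes whose mean count reached 300. The log2 ratio had an SD of 0.00953, below the 0.0442 of counting noise alone, whereas the other 14 pairs of libraries gave SDs from 0.123 to 0.262. For the 10 pump genes that ratio lay between -0.004 and 0.016. The labels and headers do not state whether the deposited counts were adjusted after counting, so the values of these libraries may not be plain read counts. The SEs and p-values from all 6 libraries, including those of the exact permutation tests, treat KCl 4 and control 4 as independent. They may therefore be too small. For this reason calls are also given without both of these libraries. Macrophage markers summed to between 1287 and 1383 CPM in KCl and between 944 and 1157 CPM in control (8 of 8 in the table, none at 0). Dendritic cell markers summed to between 3616 and 4443 CPM in KCl and between 4747 and 6567 CPM in control (7 of 7, none at 0). Monocyte markers summed to between 1358 and 1593 CPM in KCl and between 949 and 1097 CPM in control (5 of 5, none at 0). Markers of eosinophils, basophils and mast cells summed to between 1091 and 1247 CPM in KCl and between 2213 and 2408 CPM in control (7 of 7, none at 0). These markers did not move together: 3 of the 7 were lower at an adjusted p under 0.05, while 4 had a log2 fold change above 0. The part of cell makeup in the results below was not tested, and in bulk RNA fewer cells of a type cannot be told apart from less RNA per cell.

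The 10 genes were read singly against all tested genes, and no test of them as a group was made. Of the 10 genes, 2 rose, Atp6v1e1 and Atp6v1b2, none fell and 8 did not pass. Across all 13326 tested genes 22.9% passed, 12.4% as higher and 10.5% as lower, so the count of 2 in 10 was near the background. Calls were made with the quasi-likelihood test of edgeR, with p-values adjusted by Benjamini-Hochberg over all tested genes and a threshold of 0.05. At an unadjusted p under 0.05 the same test gave 4 of the 10 higher and 0 lower. The share of all tested genes under that unadjusted threshold is not given here. Unadjusted counts, here and below, therefore have no background to be read against and do not show an excess. DESeq2 and limma-voom also called 2 higher and 0 lower after adjustment. The median log2 fold change (KCl minus control) of the 10 genes was 0.18, against -0.00 for all tested genes. Of the 10 genes 9 were above 0, and of all 13326 tested genes 6582 were. Without KCl 4 and control 4, none of the 10 passed in edgeR, against 0.458% of all tested genes at the same adjusted threshold. In that fit 2 of the 10 had an unadjusted p under 0.05. The median of the 10 genes was then 0.17.

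**Figure D1:**
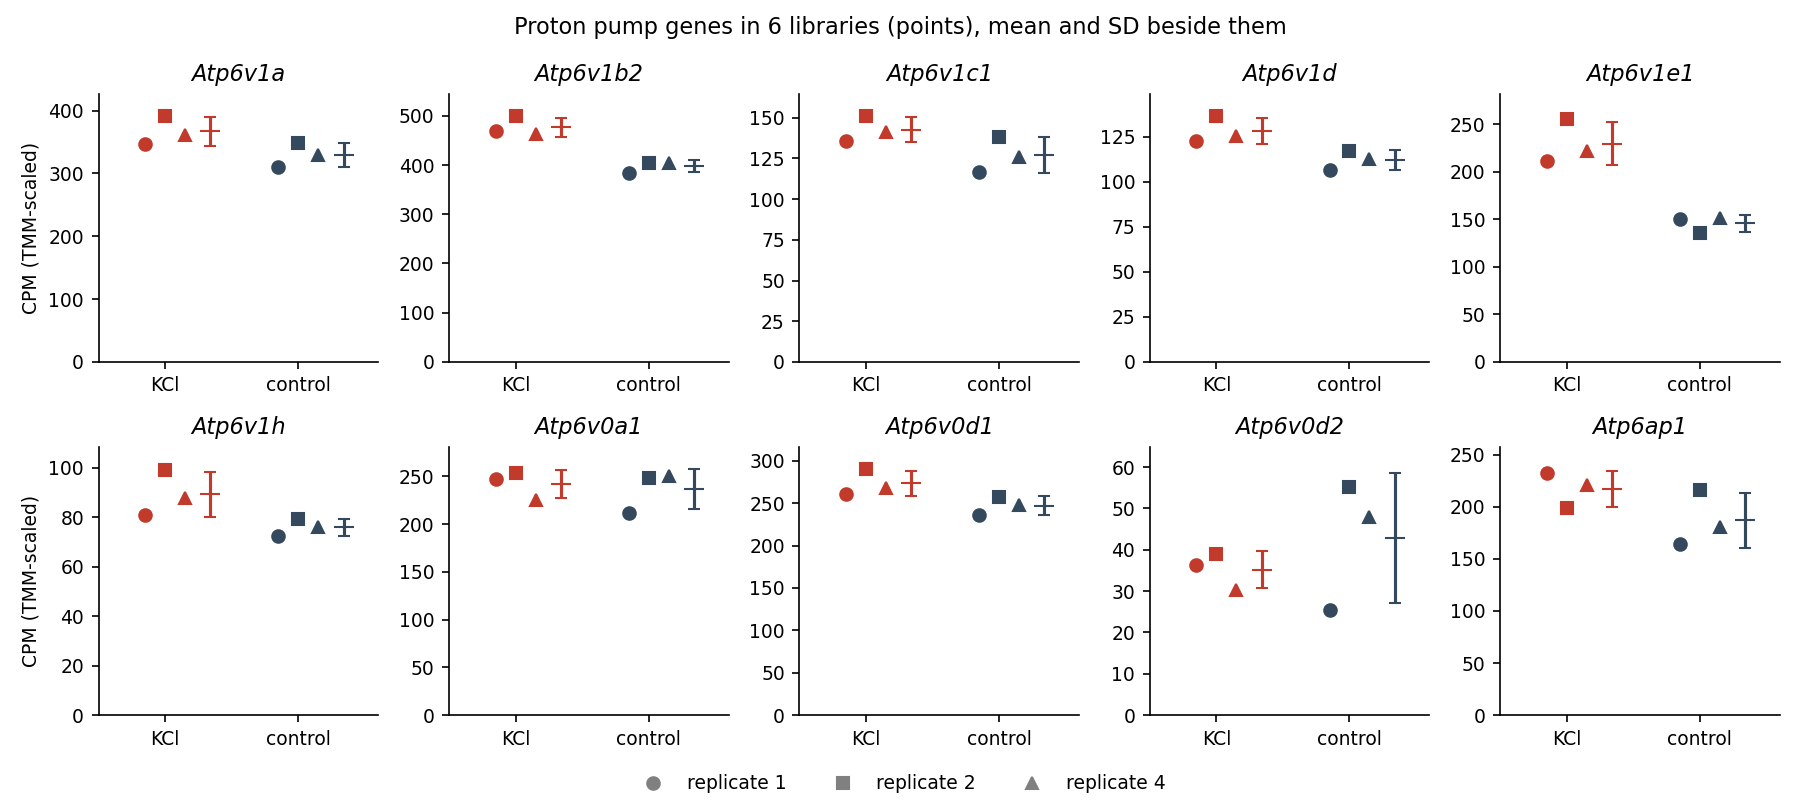
Level of each of the 10 pump genes in CPM (y axis, from 0) in 3 KCl libraries (red, left) and 3 control libraries (blue, right), with replicates as symbols and the mean and SD beside them. The groups separate most clearly for Atp6v1e1, at 212 to 255 CPM in KCl against 136 to 151 CPM in control, while the 3 control values of Atp6v0d2 spread from 25.3 to 55.3 CPM.

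Atp6v1e1 encodes subunit E, part of the peripheral stalks that hold the catalytic head of V1 in place. It stood at 212, 255 and 222 CPM in KCl 1, 2 and 4, against 150, 136 and 151 CPM in control 1, 2 and 4. The lowest KCl library lay well above the highest control library. Its log2 fold change was 0.66 ± 0.09 (SE, n = 3 per group), a fold of 1.57, with an adjusted p of 0.00577. Leaving out any 1 library gave values from 0.57 to 0.71 and kept it past the threshold, with an adjusted p of at most 0.0238. Without both replicate 4 libraries the estimate was 0.71 ± 0.12 and the adjusted p was 0.0708. The gene (ENSMUSG00000019210) is at chr6:120794305-120822793 of mm10, minus strand. It shares 32 exonic bases with Slc25a18 on the other strand, which had at most 1 count in any library.

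Atp6v1b2 encodes the widely used form of subunit B, which alternates with subunit A in the ATP-splitting head. It had 468, 499 and 464 CPM in KCl 1, 2 and 4, against 384, 405 and 405 CPM in control 1, 2 and 4. Its groups did not overlap, as in 20.2% of tested genes in that direction. The log2 fold change was 0.26 ± 0.05, or 19.9% higher, with an adjusted p of 0.017. This call was lost without either replicate 4 library: the adjusted p was 0.0548 without KCl 4, 0.0655 without control 4 and 0.109 without both, with estimates from 0.27 to 0.29. Atp6v1b2 (ENSMUSG00000006273) is at chr8:69088646-69113711, plus strand. Atp6v1b1, the form used in kidney and other proton-secreting epithelia, had counts of 0, 0 and 2 in KCl and 0 in every control library.

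The other V1 genes were somewhat higher in KCl without passing. Atp6v1a (chr16:44085402-44139705, minus strand), the catalytic subunit A, had 348, 392 and 361 CPM in KCl 1, 2 and 4, against 311, 349 and 330 CPM in control 1, 2 and 4. The groups met, since KCl 1 lay just below control 2. Its log2 fold change was 0.15 ± 0.07 with an adjusted p of 0.178. Atp6v1d (chr12:78840725-78861638, minus strand), subunit D of the central shaft, had 123, 136 and 125 CPM in KCl 1, 2 and 4, against 106, 117 and 113 CPM in control 1, 2 and 4. All KCl libraries lay above all control libraries, at a log2 fold change of 0.19 ± 0.06 and an adjusted p of 0.0813. The log2 fold change without both replicate 4 libraries was 0.16 ± 0.10 for Atp6v1a and 0.21 ± 0.10 for Atp6v1d, and neither passed.

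Atp6v1h (chr1:5070018-5162529, plus strand) encodes subunit H, which couples V1 to V0 and stills V1 when the sectors part. It had 81.0, 99.1 and 87.8 CPM in KCl 1, 2 and 4, against 72.4, 79.2 and 76.0 CPM in control 1, 2 and 4. The gap between the groups was narrow, between KCl 1 and control 2, and the log2 fold change of 0.24 ± 0.09 had an adjusted p of 0.104. It was 0.15 without KCl 2. Atp6v1c1 (chr15:38661933-38692446, plus strand) encodes the common form of subunit C, which bridges the stalks to V0 and is released when the pump comes apart. It had 136, 151 and 141 CPM in KCl 1, 2 and 4, against 116, 138 and 126 CPM in control 1, 2 and 4. The groups overlapped, with a log2 fold change of 0.17 ± 0.08 and an adjusted p of 0.197. It was 0.10 without control 1. Leaving out both replicate 4 libraries gave 0.25 ± 0.12 for Atp6v1h and 0.17 ± 0.12 for Atp6v1c1, and neither passed.

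Among the V0 genes, Atp6v0d1 (chr8:105524465-105566047, minus strand) encodes the common form of subunit d, which caps the proteolipid ring and joins it to the shaft. It had 261, 290 and 268 CPM in KCl 1, 2 and 4, against 236, 258 and 248 CPM in control 1, 2 and 4. KCl 1 lay just above control 2, so the groups did not overlap. The log2 fold change was 0.15 ± 0.06 with an adjusted p of 0.156, and 0.16 ± 0.09 without both replicate 4 libraries. Atp6v0a1 (chr11:101009452-101063719, plus strand) encodes one of the forms of subunit a, which forms the proton path and steers the pump to its membrane. It had 247, 253 and 226 CPM in KCl 1, 2 and 4, against 212, 248 and 250 CPM in control 1, 2 and 4. The groups overlapped throughout, and the log2 fold change was 0.03 ± 0.08, with a 95% interval from -0.17 to 0.23 and an adjusted p of 0.815. Its log2 fold change turned to -0.05 without control 1, to -0.00 without KCl 2 and to -0.01 with upper-quartile scaling, and it was 0.12 ± 0.10 without both replicate 4 libraries.

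Atp6v0d2, the form of subunit d known from osteoclasts and some macrophages, was the only one of the 10 genes with a negative log2 fold change. It had 36.4, 38.9 and 30.2 CPM in KCl 1, 2 and 4, against 25.3, 55.3 and 47.9 CPM in control 1, 2 and 4. The KCl libraries lay together, while control 1 was the lowest of all 6 libraries and control 2 and control 4 were the highest. The log2 fold change was -0.28 ± 0.28, with a 95% interval from -0.98 to 0.41 and an adjusted p of 0.592. This value depended on which control libraries were kept. Without control 1 the log2 fold change was -0.57 ± 0.12, with an adjusted p of 0.0402. Without control 2 it was -0.05, and without both replicate 4 libraries -0.10 ± 0.37. Atp6v0d2 (ENSMUSG00000028238) is at chr4:19876841-19922605, minus strand. Osteoclast markers, of which 6 of 7 were in the table and none at 0, summed to between 136 and 160 CPM in KCl and between 123 and 163 CPM in control. That sum hides moves in both directions. Of the 5 tested markers 2 were higher and 0 lower at an adjusted p under 0.05, yet their median log2 fold change was -0.23.

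Atp6ap1 (chrX:74297097-74304721, plus strand) encodes Ac45, an accessory protein that binds V0 and takes part in its assembly and targeting. It had 233, 198 and 221 CPM in KCl 1, 2 and 4, against 164, 216 and 180 CPM in control 1, 2 and 4. KCl 2 lay below control 2, so the groups overlapped. The log2 fold change was 0.22 ± 0.12 with an adjusted p of 0.26, and leaving out 1 library moved it between 0.12 (without control 1) and 0.33 (without control 2). It was 0.18 ± 0.16 without both replicate 4 libraries.

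The libraries differed in a way that ran across the genes. KCl 2 was the highest of the 6 libraries for 8 of the 10 genes, and control 1 was the lowest for 9. The exceptions were Atp6v0d2 and Atp6ap1, which peaked in control 2 and KCl 1, and Atp6v1e1, which was lowest in control 2. Without KCl 2 the median log2 fold change of the 10 genes was 0.13, and without control 1 it was 0.11.

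**Figure D2:**
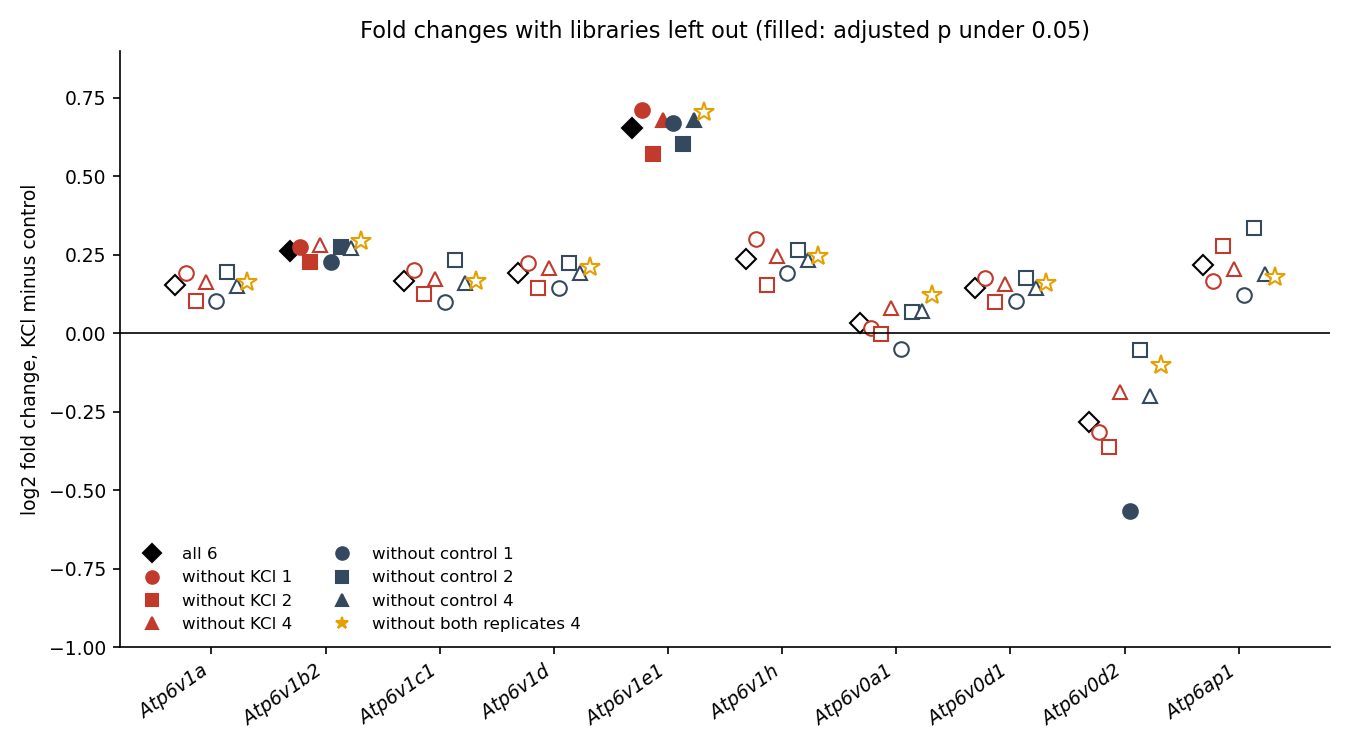
Log2 fold change of each pump gene (y axis, KCl minus control) with all 6 libraries (diamond), with 1 library left out (circles, squares and triangles for replicates 1, 2 and 4, red for KCl and blue for control) and without both replicate 4 libraries (star). Filled symbols had an adjusted p under 0.05, and Atp6v1e1 lay between 0.57 and 0.71 in every fit while Atp6v0d2 ran from -0.57 to -0.05.

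Levels per gene length were compared on the deposited FPKM scale (fragments scaled to gene length and library size). Atp6v0d1 had the highest level, with 127 ± 4.00 FPKM in KCl and 117 ± 5.03 FPKM in control (SD, n = 3 per group), and Atp6v1h the lowest, with 7.62 ± 0.60 FPKM in KCl and 6.57 ± 0.28 FPKM in control. Atp6v0d2 had 12.7 ± 1.41 FPKM in KCl and 15.7 ± 5.70 FPKM in control. Between these ends, from high to low over all libraries, stood Atp6v1d at a mean of 85.5 FPKM, Atp6v1b2 at 66.6, Atp6v1c1 at 64.2, Atp6v1a at 39.9, Atp6v1e1 at 32.6, Atp6ap1 at 30.5 and Atp6v0a1 at 24.7. In control, Atp6v1b2 and Atp6v1c1 (61.1 ± 1.67 and 61.0 ± 5.20 FPKM) differed by less than the larger SD. So did Atp6v1e1 and Atp6ap1 in control (25.6 ± 1.53 and 28.4 ± 4.03 FPKM). In KCl the means lay further apart, at 72.2 ± 1.05 FPKM for Atp6v1b2 and 67.4 ± 2.16 FPKM for Atp6v1c1. Atp6v1e1 had 39.7 ± 2.95 FPKM in KCl and Atp6ap1 32.6 ± 3.37 FPKM.

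This order depended on the gene lengths behind the FPKM values. The length implied for Atp6v1h was 11611 bases, against 2049 for its longest coding transcript in GENCODE M21, and for Atp6v1e1 it was 5730 against 1312. Per base of the longest coding transcript, Atp6v0d1 was still the highest (159 FPKM over all libraries) and Atp6v0d2 became the lowest (15.3). Atp6v1e1 then took the third place and Atp6v1d place 9 of 10. Only the top place of Atp6v0d1 held under every length used, which also included the union of GENCODE exons.

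The d subunit pair was compared as a share of their summed FPKM. Atp6v0d2 made up 9.77%, 9.42% and 8.02% in KCl 1, 2 and 4, against 7.71%, 14.3% and 13.1% in control 1, 2 and 4. The KCl shares lay between the control shares, and the means of 9.07% ± 0.92 and 11.7% ± 3.49 gave p = 0.4 in a 2-sided exact permutation test. With 3 libraries against 3, the smallest p that this test can give is 0.1. The difference of -2.61 percentage points became -4.59 without control 1 (exact permutation p = 0.1), -1.31 without control 2 (p = 0.8) and -1.40 without both replicate 4 libraries (p = 1.0).

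The a subunit family showed a wider gap. Tcirg1 encodes the a3 form, which is enriched in osteoclast and macrophage lysosomes and whose loss causes osteopetrosis. Tcirg1 made up 67.0%, 67.2% and 68.2% of the summed FPKM of the a subunit genes in KCl 1, 2 and 4, against 54.4%, 58.8% and 56.1% in control 1, 2 and 4. Every KCl share lay above every control share, by 11.0 percentage points between the means, with p = 0.1 in the exact permutation test, the smallest it can give. The rest of the family came from Atp6v0a1, described above, and Atp6v0a2, whose log2 fold change was 0.04 ± 0.05. Atp6v0a4, the kidney form, had counts of 0, 0 and 1 in KCl 1, 2 and 4 and of 0, 0 and 7 in control 1, 2 and 4, and shares 259 exonic bases with D630045J12Rik on the same strand. The exact test without both replicate 4 libraries gave a difference of 10.5 percentage points, and its smallest p is then 0.333. For subunit C, Atp6v1c2 had counts of 3, 4 and 3 in KCl 1, 2 and 4 and of 1, 0 and 0 in control 1, 2 and 4. Its share of summed FPKM was 0.0828% ± 0.0139 in KCl and 0.00873% ± 0.0151 in control (exact permutation p = 0.1), but 50 of its exonic bases are shared with Pdia6 on the other strand, which had up to 9572 counts, and the strand setting of the counting is not given in the sources used here.

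**Figure D3:**
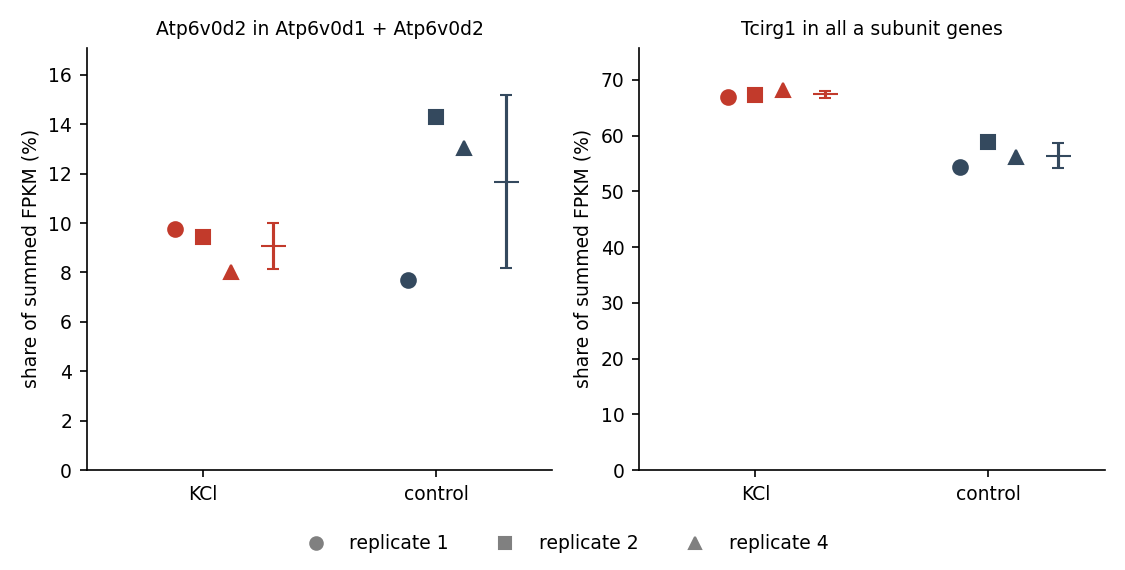
Share of summed FPKM (y axis, percent, from 0) taken by Atp6v0d2 among the d subunit genes (left) and by Tcirg1 among the a subunit genes (right) in KCl (red) and control (blue) libraries, with mean and SD. The 3 KCl shares of Tcirg1 lie between 67.0% and 68.2%, above the control range of 54.4% to 58.8%, whereas those of Atp6v0d2 lie within the control range.

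Of the 13 other pump genes found in the table, 9 had enough counts to test, of which 3 rose, 0 fell and 6 did not pass. At an unadjusted p under 0.05 edgeR gave 4 higher and 0 lower, and DESeq2 called 4 and limma-voom 3, all higher. Tcirg1 had 485, 496 and 469 CPM in KCl 1, 2 and 4, against 250, 335 and 306 CPM in control 1, 2 and 4. It rose by a log2 fold change of 0.70 ± 0.11 (adjusted p = 0.00818), and kept its call without any 1 library but not without both replicate 4 libraries (adjusted p = 0.0821). Atp6v0b, a proteolipid of the ring, had 197, 223 and 200 CPM in KCl 1, 2 and 4, against 143, 163 and 158 CPM in control 1, 2 and 4. It rose by 0.42 ± 0.07 (adjusted p = 0.0117, and 0.0908 without both replicate 4 libraries). Atp6ap2, the prorenin receptor and a V0 accessory protein, rose by 0.33 ± 0.08 (adjusted p = 0.036). Its adjusted p was 0.0635 without KCl 2, 0.0873 without KCl 4, 0.101 without control 1, 0.0564 without control 2 and 0.101 without control 4.

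Atp6v0c, the main proteolipid of the ring, had 315, 404 and 360 CPM in KCl 1, 2 and 4, against 177, 298 and 231 CPM in control 1, 2 and 4. Its log2 fold change was 0.61 ± 0.20 with an adjusted p of 0.0747. Atp6v0c has pseudogene copies in the RefSeq annotation, and reads could have been split between them. The values of Atp6v1f (0.19 ± 0.15), Atp6v1g1 (0.13 ± 0.08), Atp6v0e (0.01 ± 0.04) and Atp6v1g2 (-0.19 ± 0.28) did not pass either. Atp6v1g2 had 28 to 76 counts a library and shares 144 exonic bases with Nfkbil1 on the other strand. Atp6v0e2, an alternative form of subunit e, had counts of 8, 0 and 2 in KCl 1, 2 and 4 and of 0, 1 and 1 in control 1, 2 and 4, too few to test. Without both replicate 4 libraries, none of the 9 passed in edgeR, with 3 at an unadjusted p under 0.05, all higher.

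**Figure D4:**
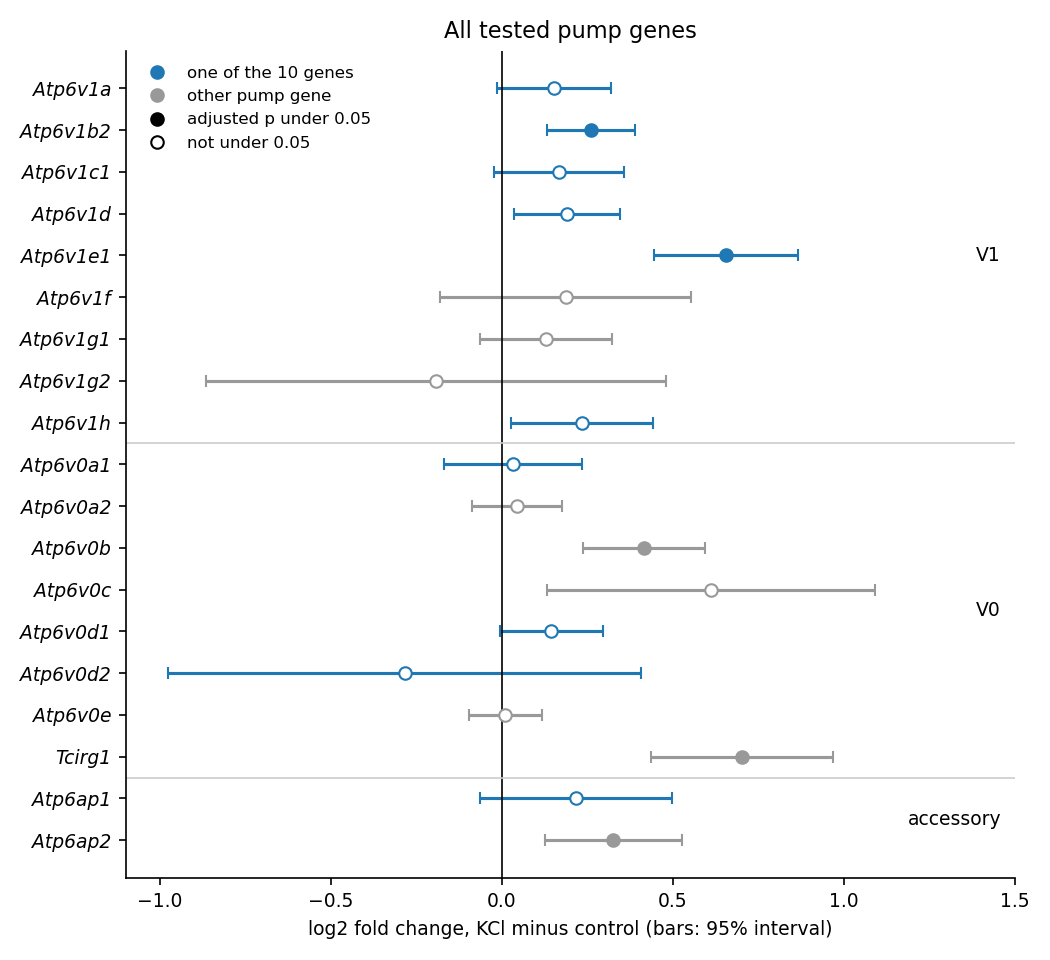
Log2 fold change (x axis, KCl minus control, bars 95% interval) of the 19 tested pump genes by sector, with the 10 genes described here in blue and the others in grey. Filled points (Atp6v1b2, Atp6v1e1, Atp6v0b, Tcirg1 and Atp6ap2) had an adjusted p under 0.05, and Atp6v1g2 and Atp6v0d2 are the only points left of 0.

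Promoter sequence was read from RefSeq windows on mm10 (GRCm38.p6), which run from 250 bases before to 50 after the RefSeq start. That start can differ from the GENCODE gene start used for the coordinates above. The factors TFEB, TFE3 and MITF, which switch on lysosomal genes, bind E-boxes with the core CACGTG. A window was at hand for 6 of the 10 genes, Atp6v0a1, Atp6v0d1, Atp6v1a, Atp6v1d, Atp6v1e1 and Atp6ap1, and 2 of them held the core, which reads the same on both strands. It occurred in 7.15% of all 32851 windows. The sequences below show the cores in capitals, 5′ to 3′ on the gene's strand. They are those of Atp6v0d1 (chr8:105566062-105566107, minus strand) and Atp6v1a (chr16:44139345-44139430, minus strand), the pump genes of the 10 with a core, and of Atp6v0b (chr4:117887330-117887405, minus strand), a pump gene outside the 10 with a pair of cores. The last is the stretch of 100 bases just before the GENCODE start of Atp6v1e1 (chr6:120822794-120822893, minus strand), the gene with the largest log2 fold change of the 10, whose window held no core.
Atp6v0d1: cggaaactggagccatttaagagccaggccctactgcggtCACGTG
Atp6v1a: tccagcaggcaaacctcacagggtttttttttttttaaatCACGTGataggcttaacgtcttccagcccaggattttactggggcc
Atp6v0b: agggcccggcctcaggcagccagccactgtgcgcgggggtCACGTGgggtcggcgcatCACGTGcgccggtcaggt
Atp6v1e1: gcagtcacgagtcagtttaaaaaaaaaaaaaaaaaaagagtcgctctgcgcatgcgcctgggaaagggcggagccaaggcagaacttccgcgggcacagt

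The core began 3 bases before the RefSeq start of Atp6v0d1 and 131 bases before that of Atp6v1a, and Atp6v0b held cores 36 and 18 bases before its RefSeq start. The RefSeq start lay 17 bases upstream of the GENCODE gene start for Atp6v0d1. It lay downstream of it by 446 bases for Atp6v1a, 95 bases for Atp6v1e1 and 4 bases for Atp6v0b. All 86 printed bases of Atp6v1a therefore lie within the gene as GENCODE draws it, in no exon. With a T before it (TCACGTG, either strand), the core was in 3.77% of all windows and in each of Atp6v0d1, Atp6v1a, Atp6v0b and Atp6v0e. The genes of the 10 with a core, Atp6v0d1 and Atp6v1a, had log2 fold changes of 0.15 and 0.15, neither of which passed. Of the 9 other tested pump genes 7 had a window and 2 a core, Atp6v0b and Atp6v0e, where it began at base 4 after the start. Their log2 fold changes were 0.42 and 0.01. The windows of Tcirg1 and Atp6ap2, which rose, held no core. A match is a description of letters in a window and not of binding.

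Genes around the pump were read from lists. Of 17 genes of MiT/TFE factors and lysosomal nutrient sensing, 4 rose, 1 fell and 12 did not pass, with a list median of 0.11. Flcn (folliculin, 0.51 ± 0.08), the Rag GTPase gene Rragc (0.33 ± 0.05) and Fnip2 (0.36 ± 0.08), a partner of folliculin, rose. Rragb fell by 1.35 ± 0.15 on the log2 scale. Its counts were low, at 16, 14 and 17 in KCl 1, 2 and 4, against 48, 48 and 31 in control 1, 2 and 4. Fnip2 missed the threshold without KCl 1, KCl 2, KCl 4 or control 4 (adjusted p from 0.0631 to 0.0794). Tfeb (0.06 ± 0.18) and Tfe3 (0.08 ± 0.10) did not pass, nor did Mitf (0.32 ± 0.11, adjusted p = 0.0791) and Tfec (0.52 ± 0.15, adjusted p = 0.0516).

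Of 12 assembly factors and regulators, 4 rose and 1 fell, with a list median of 0.11. Tmem9 (0.96 ± 0.11), reported in human cells to bind the pump, Wdr7 (0.51 ± 0.06), a partner of the rabconnectins that reassemble the pump, and Oxr1 (0.27 ± 0.05), a TLDc-domain protein, rose. Tldc1, another TLDc-domain gene, fell by 0.47 ± 0.08 on the log2 scale. Oxr1 missed the threshold without control 4 (adjusted p = 0.0548), and Tldc1 without KCl 4 (0.0518) or control 4 (0.0515). Without both replicate 4 libraries none of the 12 passed in edgeR (4 higher and 1 lower at an unadjusted p under 0.05), and none of the 17 genes of nutrient sensing (6 higher and 1 lower).

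Lysosomal genes outside the pump made up the next lists. Of 24 lysosomal membrane proteins and acid hydrolases, 18 rose and 0 fell, with a list median of 0.35, and edgeR gave 20 higher and 0 lower at an unadjusted p under 0.05 (DESeq2 called 19, limma-voom 18). The acid alpha-glucosidase gene Gaa (0.79 ± 0.06), the tetraspanin gene Cd63 (0.57 ± 0.07), the peptidase gene Tpp1 (0.64 ± 0.08) and the sulfamidase gene Sgsh (0.69 ± 0.10) were among them. Of 14 lysosomal ion carriers, 7 rose and 0 fell, also at an unadjusted p under 0.05, and 7 by DESeq2 and by limma-voom, with a list median of 0.42. Mcoln2, a cation channel (1.01 ± 0.12), Clcn7 and its partner Ostm1, which carry chloride against the protons of the pump (0.56 ± 0.08 and 0.43 ± 0.06), and Cln3 (0.54 ± 0.11) rose, but Cln3 missed the threshold without KCl 2 (adjusted p = 0.0511) or control 4 (0.0529). No test of the difference between these lists and the pump genes was made. Without both replicate 4 libraries, Gaa (adjusted p = 0.0437) was the only one of the 24 to pass, and Clcn5 (adjusted p = 0.0187), an endosomal chloride-proton exchanger, the only one of the 14. At an unadjusted p under 0.05 that fit gave 18 of the 24 and 9 of the 14 higher and 0 lower, with list medians of 0.41 and 0.44. These unadjusted counts have no share over all tested genes beside them and do not show an excess.

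Of 8 tested osteoclast and giant cell genes, 2 rose and 0 fell, with a list median of 0.07. Acp5, tartrate-resistant acid phosphatase, rose by 1.26 ± 0.11 and the protease gene Ctsk by 1.57 ± 0.17, while the transcription factor gene Nfatc1 (0.16 ± 0.06) and the fusion gene Dcstamp (-0.57 ± 0.23) did not pass. At an unadjusted p under 0.05 edgeR gave 3 higher and 1 lower. Without KCl 2, Dcstamp passed as lower, at -0.85 with an adjusted p of 0.0249. Without both replicate 4 libraries none of the 8 passed in edgeR, with 4 higher and 0 lower at an unadjusted p under 0.05. Of 12 genes of the mitochondrial ATP synthase, the rotary enzyme that runs the other way, 0 rose and 0 fell in edgeR, with a list median of -0.07. At an unadjusted p under 0.05 edgeR gave 2 higher and 0 lower, and DESeq2 and limma-voom called 0 after adjustment. Without both replicate 4 libraries 0 of the 12 passed in edgeR, with 0 higher and 4 lower at an unadjusted p under 0.05, and the list median was -0.20. Atp5d (0.27 ± 0.09) passed without control 2 (0.36, adjusted p = 0.0278), and Atp5e (0.39 ± 0.16) without KCl 1 (0.53, adjusted p = 0.0471), while Atp5g2 (-0.23 ± 0.13) and Atp5h (-0.07 ± 0.05) did not pass.

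**Figure D5:**
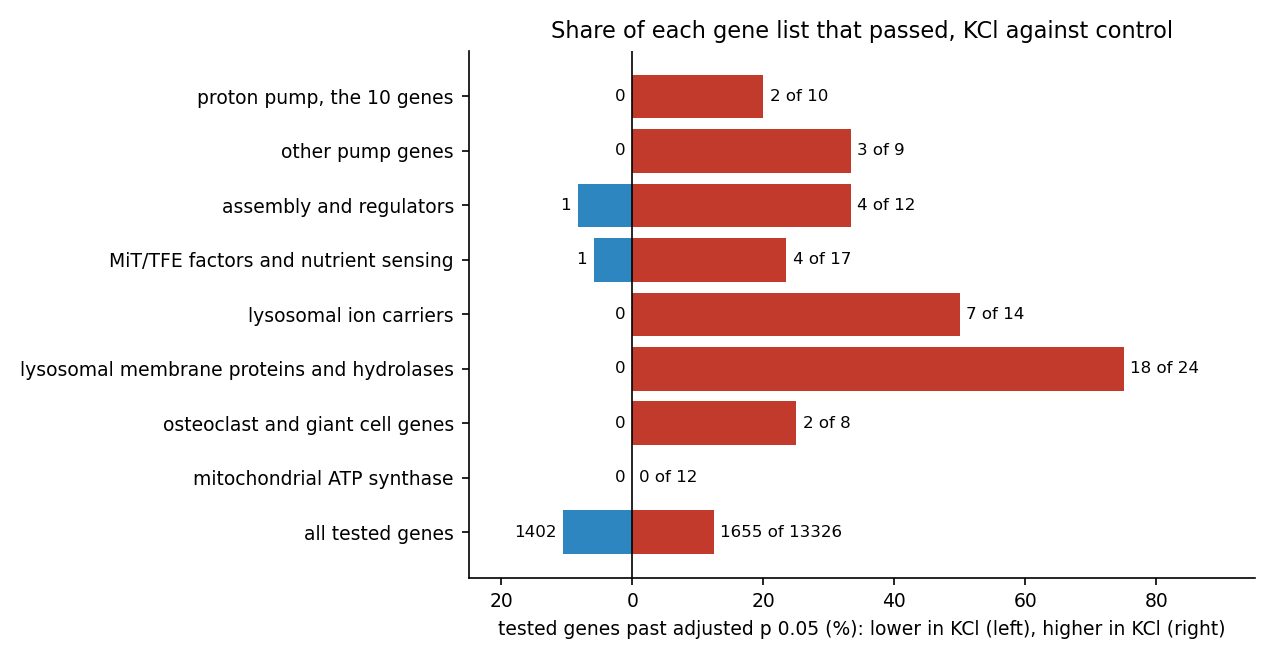
Share of the tested genes in each list with an adjusted p under 0.05 (x axis, percent), higher in KCl to the right in red and lower to the left in blue, with counts at the bars and all tested genes at the bottom. The 10 pump genes have 2 higher and 0 lower, against 18 of 24 and 0 for lysosomal membrane proteins and hydrolases.

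The genes most like the pump genes were taken as those with the highest Pearson r between their log2 CPM and the mean centred log2 CPM of the 10 genes, over 6 libraries that share groups and replicate 4. They were D730003I15Rik (r = 0.999), Slfn2 (0.998), Sh3bp2 (0.997), Gm28068 (0.997) and 4930594C11Rik (0.996). The mean centred log2 CPM of the 10 genes was 0.06, 0.18 and 0.04 in KCl 1, 2 and 4, against -0.24, 0.01 and -0.06 in control 1, 2 and 4, so the groups were separate by 0.03 at their nearest.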

How the data were processed

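Trizol-extracted RNA from 6 libraries was sequenced (NovaSeq, per the labels' protocols). The submitters' processing notes name HISAT2 2.0.4, StringTie 1.3.3b and edgeR with the build mm10. For the counting step, neither the program nor its use of strand is stated in the labels or headers. The authors deposited whole-number read counts and FPKM values per gene and library, per the file headers.

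The tests on counts used edgeR 4.0.16 under R 4.3.3 (filterByExpr, minimum count 10 and minimum total 15, TMM scaling, robust quasi-likelihood test, 2-sided, Benjamini-Hochberg adjustment over 13326 genes, threshold 0.05). Log2 fold changes are KCl minus control with the SE implied by the F statistic. CPM values are TMM-scaled. The deposited FPKM values were used for levels and subunit shares only. The fit was tested on simulated data. Alternatives used DESeq2 1.42.0 and limma-voom 3.58.1. Coordinates come from GENCODE M21. The members and lists were chosen with earlier results of these data known. All pump genes of the table are named, with up to 4 genes of smallest p per other list. Mitf, Tfec, Tfeb, Tfe3 and Clcn5 were named after their values were seen. Alternatives were other scalings, filters and tools, each library left out, both replicate 4 libraries left out and the replicate number as a block. Library totals ran from 14118724 to 21694831 counts.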

Additional observations from a re-analysis of the deposited data

How the results depend on the processing

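The direction of all 10 pump genes except Atp6v0a1 held under the 15 alternatives. With upper-quartile scaling Atp6v0a1 turned to -0.0135, Atp6v0a2 to -0.00238 and Atp6v0e to -0.0353. Atp6v0e also turned to -0.0106 by library size only, -0.0110 without a filter and -0.0101 without both replicate 4 libraries. Leaving out 1 library moved Atp6v0a1 between -0.0502 (without control 1) and 0.0808, Atp6v0e between -0.00602 (without control 4) and 0.0242, and Atp6v1g2 between -0.400 and 0.0701 (without control 1). Pump genes past the threshold numbered 2 of 10, 1 with the replicate block, 0 without both replicate 4 libraries, and 1 to 3 without any 1 library. All genes past the threshold numbered 3057, 1678 with the replicate block, 62 without both replicate 4 libraries, and 1439 (without control 4) to 2851 (without control 2) without any 1 library. Genes past the threshold in the other lists numbered 40, 2 without both replicate 4 libraries, and 23 to 42 without any 1 library. With 1 library left out, 2246 to 2851 of all genes passed without a replicate 1 or 2 library. The count was 1505 without KCl 4 and 1439 without control 4. Fewer libraries were compared in all of these fits, and the cause of the lower counts was not tested. Deviations from group means correlated at 0.02, -0.06 and -0.75 for replicates 1, 2 and 4 over 13326 genes. Across numbers, KCl 2 with control 1 and KCl 1 with control 2 both gave -0.28. As KCl 4 and control 4 are not independent of the other libraries, these values cannot decide whether the replicate numbers pair the samples. With the block, Atp6v1b2 (adjusted p = 0.0565), Oxr1 (0.0772) and Tldc1 (0.0596) missed the threshold and Atp6v0c passed (0.0325). The other tested pump genes and the other genes named by smallest p kept their calls. Mitf, Tfec, Tfeb, Tfe3 and Clcn5 were not checked with the block. Atp6v0c also passed with DESeq2 (0.012) and without control 2 (0.0252). The shares of Atp6v0d2, Tcirg1 and Atp6v1c2 kept their direction under read counts and, chosen after seeing the data, the longest GENCODE transcript.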

Other observations

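Clcn5, an endosomal chloride-proton exchanger that works beside the pump, had 57.0, 55.4 and 21.6 CPM in KCl 1, 2 and 4, against 18.4, 18.5 and 54.6 CPM in control 1, 2 and 4. The order of the groups in replicate 4 was the reverse of that in replicates 1 and 2. Its log2 fold change was 0.57 ± 0.55 with all 6 libraries (edgeR adjusted p = 0.58) and 1.61 without both replicate 4 libraries, where it was the only one of the 14 lysosomal ion carriers to pass. Clcn5 was singled out after its values were seen. As the counts of replicate 4 may not be plain read counts, the meaning of this reversal was not tested.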
